A study of Danio rerio with 15 samples.

Results

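Construct dependence of the mutant change was measured as the interaction of sf3b1 genotype with the Stat3 construct, that is, mutant minus sibling with constitutively active Stat3 (CA-Stat3), minus mutant minus sibling with wildtype Stat3 (WT-Stat3). RNA-seq was made from kdrl-positive cells that were isolated from zebrafish embryos 28 hours after fertilization, and 10 of the 15 libraries of the series entered. They were 3 libraries of sf3b1 mutants with CA-Stat3, 3 of their siblings with CA-Stat3, 2 of mutants with WT-Stat3 and 2 of siblings with WT-Stat3. Wildtype embryos were left out. All 4 groups overexpressed a form of Stat3, so none of them gives the mutant change without Stat3 overexpression. The labels name neither the sf3b1 allele, nor the genotype that siblings carried at sf3b1, nor the promoter that drove Stat3. They do not say whether replicates were separate clutches, so every p-value here measures library-to-library spread, which may be technical. A positive interaction means that the mutant minus sibling difference was higher with CA-Stat3 than with WT-Stat3, and it does not say which group moved.

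Sf3b1 is the central protein of SF3b, the complex that holds the U2 small nuclear ribonucleoprotein on the intron branch point. Stat3 is a transcription factor that Janus kinases phosphorylate downstream of cytokine receptors of the gp130 family, and a constitutively active form works without that signal. Stat3 raises its own inhibitor Socs3, and in zebrafish endothelium cytokine signalling is known for its part in the emergence of blood stem cells from the haemogenic wall of the aorta. The comparison asks whether the expression difference between mutant and sibling endothelium depends on which form of Stat3 was supplied.

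Library totals were 3625121 to 6506853 counts in mutants and 5161557 to 8059498 in siblings, and 16634 of the 27215 genes with any count passed the filter on low counts and were tested. One row, zgc:158463, took 16.3% to 39.5% of the counts. The library labelled mutant WT-Stat3 replicate 2 stood apart: it was the shallowest, had the highest share in that row, and had 18512 genes with a count where the other 9 had at least 21680. The first principal component of log2 CPM (counts scaled to a common library total) held 44.9% of the variance, and that library lay at -106 on it, beyond the other mutants at -47.2 to -7.02. Spearman correlations over genes were 0.919 to 0.964 within groups, 0.897 to 0.961 between constructs of a genotype and 0.814 to 0.942 between genotypes. The gene kdrl, which encodes a vascular endothelial growth factor receptor, was at 334 to 862 CPM in all 10 libraries. The cells were isolated as kdrl-positive, so this level does not measure how pure they were.

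The targeted gene was lower in mutants by nearly the same amount with either construct. SF3B1 was at 106, 89.6 and 80.0 CPM in the 3 mutant CA-Stat3 libraries and at 163, 155 and 175 CPM in their siblings. With WT-Stat3 it was at 90.4 and 104 CPM in mutants and at 161 and 153 CPM in siblings. All 5 mutant libraries were below all 5 sibling libraries, an order that 8.27% of all tested genes had. The mutant minus sibling change was a log2 value of -0.84 with CA-Stat3 (Benjamini-Hochberg (BH) adjusted p = 0.0079, edgeR's quasi-likelihood test) and -0.70 with WT-Stat3 (adjusted p = 0.072), and the interaction was -0.14 with a 95% interval of -0.71 to 0.43. STAT3 itself was at 189 to 402 CPM with CA-Stat3 and at 236 to 453 CPM with WT-Stat3, and its interaction was -0.12 with an interval of -1.12 to 0.88. The deposited counts do not tell construct from endogenous transcripts, so the STAT3 value does not check the construct labels.

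No gene passed the test of the interaction. With edgeR 0 of 16634 genes had an adjusted p under 0.05 (0% called) and the smallest adjusted p was 0.988, while 669 genes (4.02%) had an unadjusted p under 0.05, 399 of them positive (2.4%) and 270 negative (1.62%). DESeq2 called 1 gene and limma called 0, with 579 and 535 genes at an unadjusted p under 0.05. Without the filter on low counts edgeR called 31 genes, 9 positive and 22 negative. For comparison, the mutant minus sibling difference averaged over constructs was called for 3903 genes (23.5%), 1882 higher and 2021 lower. Leaving out any 1 CA-Stat3 library also gave 0 genes called for the interaction, with 499 to 852 at an unadjusted p under 0.05. The smallest adjusted p in those edgeR fits was 0.531. Leaving out a WT-Stat3 library leaves 1 in its group, and the share of genes at such an unadjusted p then moved in both directions.

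The gene that DESeq2 called has the identifier ENSDARG00000104308 but no symbol. It was at 377, 515 and 730 CPM in mutants with CA-Stat3 and at 1710, 2020 and 1490 CPM in their siblings. With WT-Stat3 the order was not the same, at 1420 and 1320 CPM in mutants and 688 and 1170 CPM in siblings. Mutants were thus below siblings with CA-Stat3 and above them with WT-Stat3, without overlap of the libraries in either construct. The interaction was -2.25 with an SE of 0.41, at an adjusted p of 0.988 with edgeR and 0.000596 with DESeq2.

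The mutant changes themselves were largely alike in the 2 constructs, which share no library. Mutant minus sibling was called for 2027 genes with CA-Stat3 (12.2% of those tested, 976 higher and 1051 lower) and for 831 genes with WT-Stat3 (5%, 488 higher and 343 lower), where there were fewer libraries. Of the 831 genes called with WT-Stat3, 816 (98.2%) had the same sign with CA-Stat3. Of these, 731 (88.0% of the 831) also had an unadjusted p under 0.05 there, beside 29% of all genes in either direction. Of the 2027 called with CA-Stat3, 1983 (97.8%) had the same sign with WT-Stat3. Of these, 1404 (69.3% of the 2027) also had an unadjusted p under 0.05 there, beside 23% of all genes in either direction. The lists shared 599 genes, which is 29.6% of the CA-Stat3 list and 72.1% of the WT-Stat3 list, and 0 of those had opposite signs. Over all tested genes, 74.3% had the same sign and Pearson's r of the log2 changes was 0.69 across genes, which are not independent replicates. The value of r was 0.44 without sibling WT-Stat3 replicate 2 and 0.46 without mutant WT-Stat3 replicate 1, and 0.29 without the filter on low counts. The WT-Stat3 counts rested on single libraries: without mutant replicate 1 there were 1405 calls, and without mutant replicate 2, sibling replicate 1 or sibling replicate 2 there were 125, 157 and 127. With CA-Stat3 the count was 640 without mutant replicate 2, 759 without mutant replicate 3 and 984 without sibling replicate 2. With 2 libraries in every group there were 441 calls with CA-Stat3 and 662 with WT-Stat3.

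**Figure D1:**
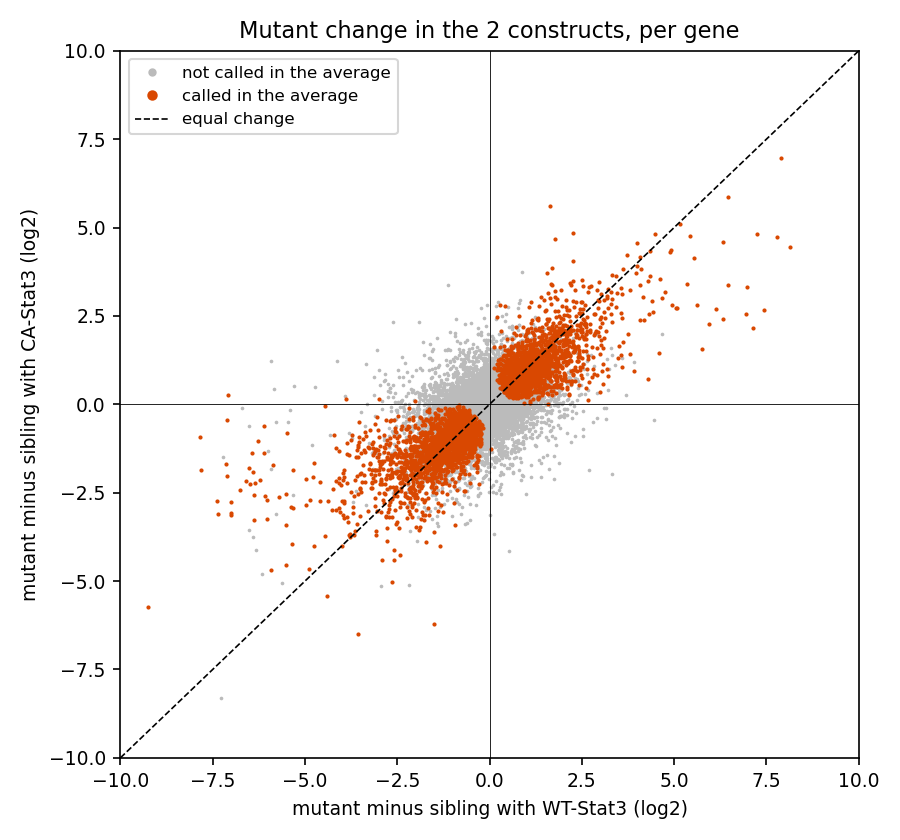
Log2 mutant minus sibling change of each of the 16634 tested genes with WT-Stat3 (x axis) and with CA-Stat3 (y axis); orange points are the 3903 genes called in the average of the constructs and the dashed line marks equal change. Most orange points lie in the quadrants of equal sign and around the dashed line, with r of 0.69 over all genes.

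The median size of the mutant change was close in the 2 constructs. Among genes called with CA-Stat3 the median absolute log2 change was 1.30 with CA-Stat3 and 1.04 with WT-Stat3, and among genes called with WT-Stat3 it was 1.28 and 1.68, so each list was larger in the construct that chose it. Over all tested genes the median absolute change was 0.46 with CA-Stat3 and 0.52 with WT-Stat3. Taken along the direction of each gene's average change, the median interaction of the 3903 genes was -0.086, beside -0.057 over all tested genes. The library means over these genes, signed by that direction, had a pooled SD within groups of 0.164, which is not the SD of an interaction. The median SE was 0.42 with WT-Stat3 and 0.33 with CA-Stat3 over all tested genes. That noise enters the direction and the absolute changes, so these medians do not show a smaller change with CA-Stat3. The median along the mutant direction was -0.586 without mutant WT-Stat3 replicate 1, when replicate 2 alone stands for that group, and 0.0787 without mutant CA-Stat3 replicate 1.

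The precision differed with the level of a gene. The median SE of the interaction was 0.53 on the log2 scale over all genes, 0.33 for genes with an average log2 CPM of 5 or more and 1.04 for genes under 2. The 95% interval lay within 1 log2 unit of 0 on either side for 18.2% of all genes and for 51.6% of the genes at 5 or more, and within 2 units for 63.9% and 96.7%. For most tested genes the interval therefore did not exclude a difference of 2-fold between the constructs at this depth and number of libraries. An uncalled interaction does not show an equal change.

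Genes of splicing and small RNA transcription, PRPF31, snapc4 and brf2 among them, rose in mutants with either construct. PRPF31, a protein of the U4/U6.U5 tri-snRNP, was at 221, 322 and 252 CPM in mutants and 30.4, 29.8 and 30.9 CPM in siblings with CA-Stat3. With WT-Stat3 it was at 251 and 184 CPM in mutants and 24.9 and 28.5 CPM in siblings. It rose by 3.12 with CA-Stat3 and 3.03 with WT-Stat3 on the log2 scale, and its interaction was 0.10 with an interval of -0.56 to 0.75. The snapc4 gene encodes the largest subunit of SNAPc, the complex that starts small nuclear RNA transcription. It was at 193, 206 and 221 CPM against 26.3, 19.5 and 23.1 CPM with CA-Stat3, and at 223 and 197 CPM against 23.3 and 19.4 CPM with WT-Stat3. Its interaction was -0.13 with an interval of -0.73 to 0.47, so a difference of 1 log2 unit between the constructs lay outside the interval. The brf2 gene, a TFIIIB subunit that acts at U6-type promoters, rose by 3.83 and 3.63, and its interaction was 0.20 with an interval of -0.78 to 1.18.

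SNRNP200 and EFTUD2, the helicase and the GTPase of the U5 snRNP, rose with either construct, and their interactions were not called. SNRNP200 was at 976, 1380 and 1290 CPM in mutants and 246, 256 and 294 CPM in siblings with CA-Stat3, and at 1310 and 1650 CPM against 229 and 253 CPM with WT-Stat3. Its interaction was -0.42 with an interval of -1.05 to 0.20. EFTUD2 rose by 2.10 with CA-Stat3 and 2.72 with WT-Stat3, and its interaction of -0.62 had an unadjusted p of 0.058 and an interval of -1.26 to 0.02. Of the 135 tested splicing genes, 53 were called higher and 1 lower with CA-Stat3, beside 5.87% and 6.32% of all genes, and 36 were called higher and 0 lower with WT-Stat3, beside 2.93% and 2.06%. The WT-Stat3 count moved with single libraries, as did that of all genes. The list's median WT-Stat3 change was 0.51 without sibling WT-Stat3 replicate 1 and 0.52 without sibling WT-Stat3 replicate 2. It was 0.40 without mutant WT-Stat3 replicate 1 and 0.59 without mutant WT-Stat3 replicate 2. All 5 mutant libraries were above all 5 sibling libraries for 58 of the 135 genes, beside 8.43% of all genes. The list's median change was 0.52 with CA-Stat3 and 0.49 with WT-Stat3, and its median interaction was 0.12, with 4 members at an unadjusted p under 0.05 above 0 and 2 below, of 135, beside 2.4% and 1.62% of all genes. Without mutant WT-Stat3 replicate 1 the median was 0.31 with 34 members above 0 and 7 below, in a fit where 13.5% of all genes had an unadjusted p under 0.05. SNRPD1, a core Sm protein, had the smallest p of the list and was at 56.0 to 71.4 CPM in mutants with CA-Stat3, 41.9 and 36.2 CPM in mutants with WT-Stat3 and 30.0 to 36.2 CPM in the 5 sibling libraries. Its interaction was 0.89 with an SE of 0.28, an unadjusted p of 0.0079 and an adjusted p of 0.988. The list of SNAPc, RNA polymerase III and Integrator genes had a median interaction of 0.06 over 45 genes, with single values from -1.04 to 2.15. The highest belonged to INTS10, an Integrator subunit, which was at 2.85 and 1.04 CPM in mutants with WT-Stat3 and at 5.26 to 8.51 CPM in the other 8 libraries. Its interaction of 2.15 had an SE of 0.59, an unadjusted p of 0.0028 and an adjusted p of 0.988. The value rests on low counts in the mutants with WT-Stat3.

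No Stat3 pathway gene passed the test of the interaction. SOCS3, the feedback inhibitor that Stat3 induces, has 2 identifiers. The more abundant, ENSDARG00000026611, was at 129, 74.9 and 81.4 CPM in mutants and 159, 220 and 199 CPM in siblings with CA-Stat3. In the WT-Stat3 groups it was at 65.2 and 55.9 CPM in mutants and 130 and 185 CPM in siblings. It fell by 1.02 with CA-Stat3 (adjusted p = 0.015, edgeR) and by 1.38 with WT-Stat3 (adjusted p = 0.021), and the interaction was 0.36 with an interval of -0.44 to 1.16. The other SOCS3, ENSDARG00000025428, was at 3.11 to 26.5 CPM and had an interaction of 0.33 with an interval of -1.09 to 1.75. CEBPB, a transcription factor downstream of cytokine signals, was at 47.1 to 65.1 CPM against 78.4 to 178 CPM with CA-Stat3, and at 40.4 and 65.8 CPM against 102 and 148 CPM with WT-Stat3. Its mutant change was -1.06 with CA-Stat3 and -1.23 with WT-Stat3, with an interaction of 0.17.

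Upstream of Stat3 no kinase or receptor subunit had a called interaction. JAK1 had an interaction of 0.14, with an interval of -0.49 to 0.77. The values were 0.07 for jak2a, with -0.73 to 0.86, and 0.04 for il6st, the gp130 subunit, with -0.60 to 0.68. A further JAK2 identifier was at -0.33, with -0.96 to 0.30. TYK2, the remaining Janus kinase named, rose by 1.44 with CA-Stat3 and 2.02 with WT-Stat3, from 5.21 to 12.1 CPM in the 5 siblings to 20.2 to 34.4 CPM in the 5 mutants, and its interaction was -0.58 with -1.63 to 0.47. The JUNB identifiers, immediate-early targets, were at 0.20 and 0.25. Over the 43 tested genes of the pathway list the median change was -0.21 with either construct and the median interaction 0.15. In the average of the constructs 3 members were called higher and 10 lower, beside 11.3% and 12.1% of all genes.

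CA-Stat3 against WT-Stat3 within a genotype gave no calls either. In siblings edgeR called 0 genes, with 493 (2.96%) at an unadjusted p under 0.05, while DESeq2 called 2 and limma 0. In mutants edgeR called 0 genes, with 1416 (8.51%) at an unadjusted p under 0.05, while DESeq2 called 32 and limma 0. Without mutant WT-Stat3 replicate 1 the mutant comparison had 174 calls. Both comparisons enter the interaction, so they are no separate evidence for it.

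Some blood and haemogenic regulators changed in mutants, and none of their interactions was called. GFI1B, a transcriptional repressor that acts in erythroid and stem cells, was at 64.8, 77.6 and 73.3 CPM in mutants and 32.5, 15.3 and 10.6 CPM in siblings with CA-Stat3. In the WT-Stat3 groups it was at 66.9 and 124 CPM in mutants and 19.5 and 15.7 CPM in siblings. It rose by 1.86 and 2.43, and the interaction was -0.56 with an interval of -1.73 to 0.61. TAL1, which specifies blood and endothelium, rose by 1.69 with CA-Stat3 and had a change of 1.21 with WT-Stat3 (adjusted p = 0.073), with an interaction of 0.48 and an interval of -0.52 to 1.48. LCP1, a leukocyte actin bundler, fell by 1.68 and 1.57, with an interaction of -0.11. RUNX1 and MYB, which mark emerging stem cells, had interactions of 0.25 and 0.20, with intervals of -1.76 to 2.26 and -0.71 to 1.11. RUNX1 was at only 1.56 to 8.67 CPM. GATA2 was at 0.24 and gfi1aa at 1.22, with -1.16 to 3.6 for the latter. Over 22 haemogenic genes the median interaction was 0.07.

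**Figure D2:**
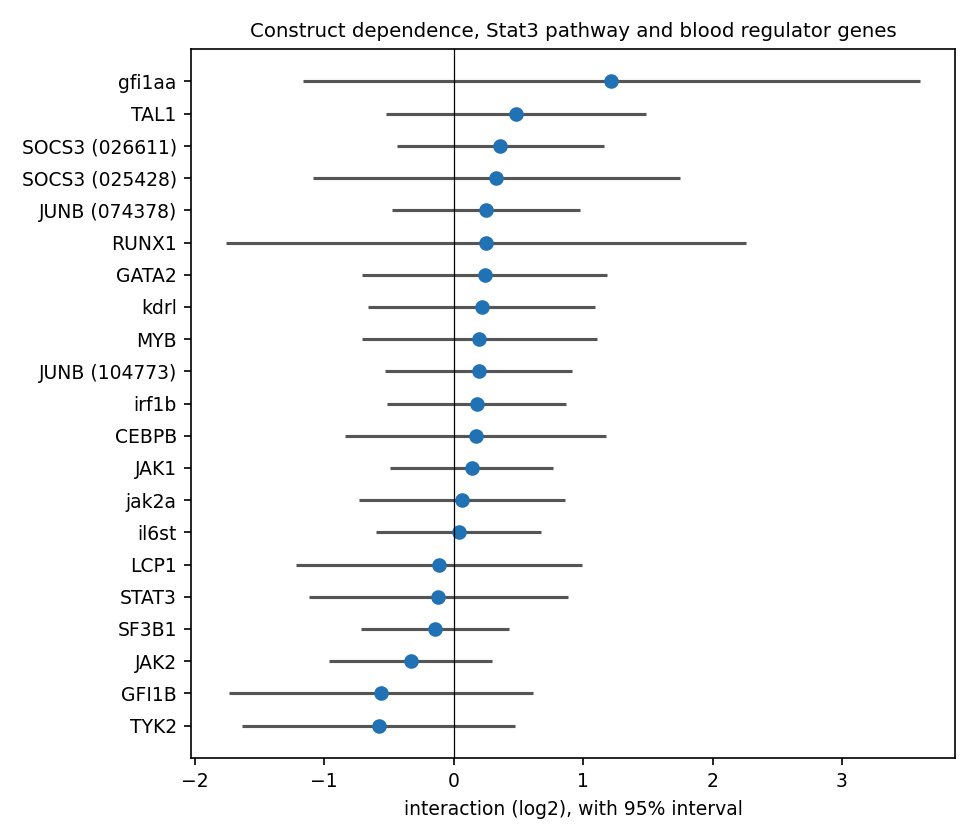
Interaction (log2, points) with its 95% interval (lines) for named genes of the Stat3 pathway and blood regulators; genes with several identifiers carry the last digits of each. The 21 intervals all include 0, and those of RUNX1 and gfi1aa are the widest.

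Myeloid genes were lower in mutants with either construct. The npsn gene, a neutrophil metalloprotease, was at 83.7, 29.5 and 37.2 CPM in mutants and 388, 711 and 281 CPM in siblings with CA-Stat3, and at 30.9 and 3.80 CPM against 252 and 278 CPM with WT-Stat3. It fell by 3.19 and 3.87, with an interaction of 0.68 and an interval of -1.15 to 2.50. Of 33 myeloid genes, 16 were called lower with CA-Stat3 and 10 with WT-Stat3, beside 6.32% and 2.06% of all genes, and 0 higher in either. The WT-Stat3 count moved with single libraries, as did that of all genes. With CA-Stat3 6 members were called without mutant replicate 2, beside 640 of all 16633 genes. Without mutant replicate 3 there were 5, beside 759 of 16381, and without sibling replicate 2 there were 8, beside 984 of 16469. The list's median change was -1.47 with CA-Stat3 and -1.62 with WT-Stat3, and its median interaction was 0.16. Without mutant WT-Stat3 replicate 1 the WT-Stat3 median was -2.72 and the interaction 1.26, and without replicate 2 they were -1.16 and -0.26. The WT-Stat3 median was -1.76 without sibling WT-Stat3 replicate 1 and -1.67 without sibling WT-Stat3 replicate 2. In bulk samples fewer cells of a type and less RNA per cell cannot be told apart. Erythroid genes had median changes of 0.67 with CA-Stat3 and 0.57 with WT-Stat3 and a median interaction of 0.17. The WT-Stat3 median was 0.058 without mutant replicate 2 and 0.99 without mutant replicate 1, with interactions of 0.70 and -0.29. CPOX, a haem synthesis enzyme, rose by 2.49 and 2.14 with an interaction of 0.35.

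Among the named endothelial genes RBPJ, clec14a and NR2F2 had an unadjusted interaction p under 0.05, and none was called. The RBPJ entry ENSDARG00000052091, annotated as the DNA-binding partner of Notch, was at 7.96, 6.43 and 6.47 CPM in mutants and 21.9, 28.1 and 28.9 CPM in siblings with CA-Stat3. With WT-Stat3 it was at 11.4 and 12.4 CPM in mutants and 20.0 and 19.1 CPM in siblings. The mutant libraries with CA-Stat3 were thus the lowest and their siblings the highest of the 4 groups. It fell by 1.91 with CA-Stat3 and had a change of -0.72 with WT-Stat3 (adjusted p = 0.14), and the interaction was -1.19 with an SE of 0.36 (unadjusted p = 0.0052, adjusted p = 0.988). The value stayed between -1.31 and -1.12 when any 1 library was left out. This entry was chosen for its small p in the same libraries, so that range adds no separate support. A second gene listed under the symbol RBPJ, ENSDARG00000003398, had an interaction of -0.28 (unadjusted p = 0.41). The endothelial surface lectin gene clec14a was at 192, 370 and 384 CPM against 126, 127 and 73.0 CPM with CA-Stat3, and at 343 and 204 CPM against 202 and 190 CPM with WT-Stat3. Its interaction was 1.05 with an SE of 0.46 (unadjusted p = 0.040), and 0.74 without mutant WT-Stat3 replicate 2.

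The Notch ligand jag2a rose by 1.51 and 1.77, with an interaction of -0.26. MRC1, a scavenger receptor of venous and lymphatic endothelium, fell by 1.06 and 1.55, with an interaction of 0.49 and an interval of -0.29 to 1.26. DAB2, an endocytic adaptor of venous endothelium, rose by 1.19 and 1.22, with an interaction of -0.03. NR2F2, the venous fate regulator, was at 55.6 to 66.8 CPM in mutants and 62.7 to 96.8 CPM in siblings with CA-Stat3, and at 106 and 100 CPM against 61.4 and 83.2 CPM with WT-Stat3. Its mutant change was -0.35 with CA-Stat3 and 0.51 with WT-Stat3, neither called, and the interaction was -0.86 (unadjusted p = 0.017). Median interactions were -0.05 over 38 arterial and Notch genes and 0.14 over 14 venous genes. Of 28 pan-endothelial genes 25 had a positive interaction, with a median of 0.33. Leaving out any 1 library gave medians of 0.18 to 0.52. With 2 libraries in every group, a setting chosen after seeing the data, the median was -0.03. The summed level of the list ranged from 2922 to 4823 CPM in siblings with CA-Stat3 and was 6234 and 5282 CPM in siblings with WT-Stat3.

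Cytosolic ribosomal protein genes had the largest positive median interaction of the lists, apart from lens genes near 0 counts. Their mutant minus sibling median was -0.01 with CA-Stat3 and -0.65 with WT-Stat3, and 79 of the 81 tested genes had a positive interaction, with a median of 0.61. The list holds 1 gene, rps19bp1, whose product is not a ribosomal protein. The mean log2 CPM of the list was 7.38 and 6.96 in the 2 mutant libraries with WT-Stat3 and at least 7.70 in the other 8. Those mutant libraries were both below the other 8 for 69 of 81 genes, beside 6.37% of all tested genes. The genes share these libraries and are not independent replicates, so counts of members add no separate support. An unadjusted p under 0.05 was found for 42 members (51.9%) in the positive direction, beside 2.4% of all genes, and for 0 in the negative direction. With the filter on low counts no member had an adjusted p under 0.05. With WT-Stat3, 15 members were called lower in mutants, beside 2.06% of all genes, and with CA-Stat3 2 were, beside 6.32%. The WT-Stat3 count moved with single WT-Stat3 libraries, as did that of all genes. The WT-Stat3 median was -0.88 without mutant replicate 1, -0.47 without mutant replicate 2 and -0.63 without sibling replicate 1. The WT-Stat3 count was also lower without some CA-Stat3 libraries. It was 9 without mutant CA-Stat3 replicate 2, beside 664 of all 16633 genes, and 9 without sibling CA-Stat3 replicate 2, beside 629 of 16469. Without mutant CA-Stat3 replicate 3 it was 6, beside 575 of 16381.

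RPS28, a protein of the small subunit with the smallest interaction p of the list, was at 305, 332 and 294 CPM in mutants and 304, 211 and 216 CPM in siblings with CA-Stat3. With WT-Stat3 it was at 186 and 103 CPM in mutants and 271 and 260 CPM in siblings. Its interaction was 1.22 with an SE of 0.35 (unadjusted p = 0.0041), and 0.876 without mutant WT-Stat3 replicate 2. RPL12, a large subunit protein near the factor-binding stalk, was at 252, 234 and 193 CPM against 366, 303 and 325 CPM with CA-Stat3, and at 148 and 121 CPM against 348 and 369 CPM with WT-Stat3. Mutants were lower in both constructs without overlap. RPL12 fell by 1.41 with WT-Stat3, had a change of -0.55 with CA-Stat3 (adjusted p = 0.054), and its interaction was 0.86 with an interval of 0.27 to 1.45 (unadjusted p = 0.0074). RPL5, which carries 5S ribosomal RNA, fell by 0.79 and 1.25.

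The size of the ribosomal difference moved with the mutant WT-Stat3 libraries. Without replicate 2, the library that stood apart, the median interaction was 0.43 and 11 members had an unadjusted p under 0.05, in a fit where 2.53% of all genes did. Without replicate 1 the median was 0.84 with 60 such members, but there 13.5% of all genes had such a p. Without sibling WT-Stat3 replicate 1 it was 0.61 with 19 members, beside 2.39% of all genes. Over all 10 ways of leaving out 1 library the median stayed between 0.43 and 0.84. Mutant WT-Stat3 replicate 1 by itself, at a list mean of 7.38, was below the 8 libraries of the other groups.

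Small non-coding RNAs had mostly negative interactions, though none was called with the filter on low counts. This set of 45 tested small nuclear, nucleolar, 7SK and signal recognition particle RNAs was defined by symbol after the values were seen, and the labels give poly(A) selection although most such RNAs have no poly(A) tail. The mutant minus sibling median was 0.13 with CA-Stat3 and 1.02 with WT-Stat3, 43 of 45 had a negative interaction, and the median interaction was -0.98. Their mean log2 CPM was 3.99 and 5.06 in mutants with WT-Stat3, 3.57 to 3.98 in mutants with CA-Stat3 and 3.23 to 3.48 in the 5 sibling libraries. An unadjusted p under 0.05 was found for 13 members (28.9%) in the negative direction, beside 1.62% of all genes. Both mutant WT-Stat3 libraries were above the other 8 for 12 of the 45, beside 5.02% of all genes, though members are not independent replicates. Without mutant WT-Stat3 replicate 2 the median was -0.39 with 3 such members, beside 2.53% of all genes at such a p in either direction, and without replicate 1 it was -1.42 with 27, beside 13.5%.

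The U11 RNA gene snrnau11, which recognises minor introns, was at 66.4, 81.1 and 116 CPM in mutants and 39.9, 39.3 and 46.7 CPM in siblings with CA-Stat3. With WT-Stat3 it was at 132 and 266 CPM in mutants and 31.3 and 38.5 CPM in siblings. Mutants were above siblings in either construct, and the interaction was -1.45 with an SE of 0.42 (unadjusted p = 0.0044), or -0.845 without mutant WT-Stat3 replicate 2. The gene rn7sk, whose RNA holds the elongation factor P-TEFb inactive, was at 2250 to 2490 CPM in mutants with CA-Stat3 and 3250 and 4390 CPM with WT-Stat3, while siblings were at 3100 to 3500 CPM. The signal recognition particle RNA rn7sl1 was at 46600 CPM in mutant WT-Stat3 replicate 2 and at 15500 to 27100 CPM in the other 9 libraries.

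**Figure D3:**
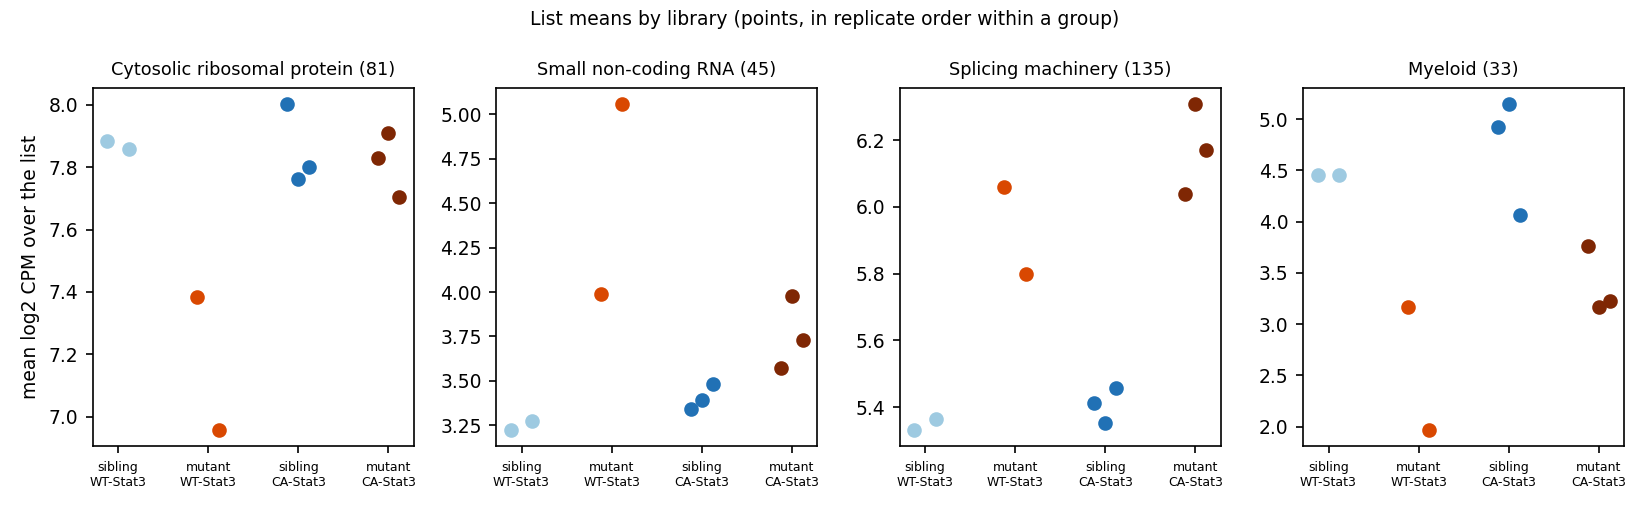
Mean log2 CPM of 4 gene lists in each of the 10 libraries (1 point each, in replicate order within a group). Ribosomal protein genes are lowest in the 2 mutant WT-Stat3 libraries at 7.38 and 6.96. Small non-coding RNAs are at 3.99 and 5.06 there, and the first value is close to mutant CA-Stat3 replicate 2 at 3.98. Splicing and myeloid genes separate mutants from siblings in either construct.

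The other lists had smaller differences. Mitoribosomal protein genes, a set also defined after the values were seen, had a median interaction of 0.43 with 61 of 73 positive. Nuclear genes of the respiratory chain were at 0.32, proteasome genes at 0.28 and translation factor genes at 0.11, as sets of the same origin. Without mutant WT-Stat3 replicate 1 the medians were 0.75 for mitoribosomal, 0.61 for respiratory and 0.54 for proteasome genes, and without replicate 2 they were 0.35, 0.18 and 0.14. The 13 mitochondrially encoded genes were all positive with a median of 0.29, but the median was -0.00035 without mutant WT-Stat3 replicate 2 and 0.015 without sibling WT-Stat3 replicate 1. Genes of the integrated stress and unfolded protein responses had 0.33 over 49 genes, with 5 positive and 0 negative at an unadjusted p under 0.05, beside 2.4% and 1.62% of all genes, and 0.072 without sibling WT-Stat3 replicate 1. HSPA5, the endoplasmic reticulum chaperone, had an interaction of 0.77 (unadjusted p = 0.026). Heat shock genes had 0.11. The heat shock regulator hsf1 rose by 1.92 with CA-Stat3 and by 2.50 with WT-Stat3, and its interaction was -0.58 with an interval of -1.18 to 0.01. Cell cycle genes had -0.13. TOP2A, the mitotic topoisomerase, fell by 1.30 and 0.97, and ORC1 rose by 1.17 and 1.47. List medians near 0 moved with single libraries: leaving out each gave -0.25 to 0.06 for cell cycle, -0.07 to 0.25 for heat shock, 0.05 to 0.25 for Stat3 pathway, -0.05 to 0.33 for haemogenic, -0.20 to 0.04 for arterial and -0.03 to 0.37 for venous genes.

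Markers of cell types other than endothelium, which the sorted cells may include, also varied. Mesenchyme genes had a median change of -1.29 with CA-Stat3 and -0.80 with WT-Stat3 and a median interaction of -0.37, with 36 of 48 negative. Without sibling WT-Stat3 replicate 1 that median was -0.10 and without sibling WT-Stat3 replicate 2 it was -0.60, and without sibling CA-Stat3 replicate 1 it was -0.61. Their summed level was 1655 to 1884 CPM in the 5 mutants, 3325 to 5884 CPM in siblings with CA-Stat3, and 2031 and 3919 CPM in siblings with WT-Stat3. COL1A1, a fibrillar collagen, fell by 2.69 and 1.82 with an interaction of -0.87 and an interval of -2.03 to 0.28. Neural genes had a median interaction of -0.05 and epidermal genes 0.05, with -0.47 to 0.31 and -0.26 to 0.38 when each library was left out. Muscle genes summed to 17501 CPM in sibling CA-Stat3 replicate 3 and 8200 CPM in sibling WT-Stat3 replicate 2, and to 792 to 3082 CPM in the other 8 libraries. Their median change was -2.24 with CA-Stat3 and -2.12 with WT-Stat3, and their median interaction was -0.02. That interaction rested on single libraries: it was -3.46 without sibling WT-Stat3 replicate 2 and 1.29 without sibling CA-Stat3 replicate 3. Lens genes summed to only 1.7 to 10.8 CPM in mutants and 18.1 to 69.0 CPM in siblings, so their fitted interactions rest on a few counts. The part of these cells in the results above was not tested.

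**Figure D4:**
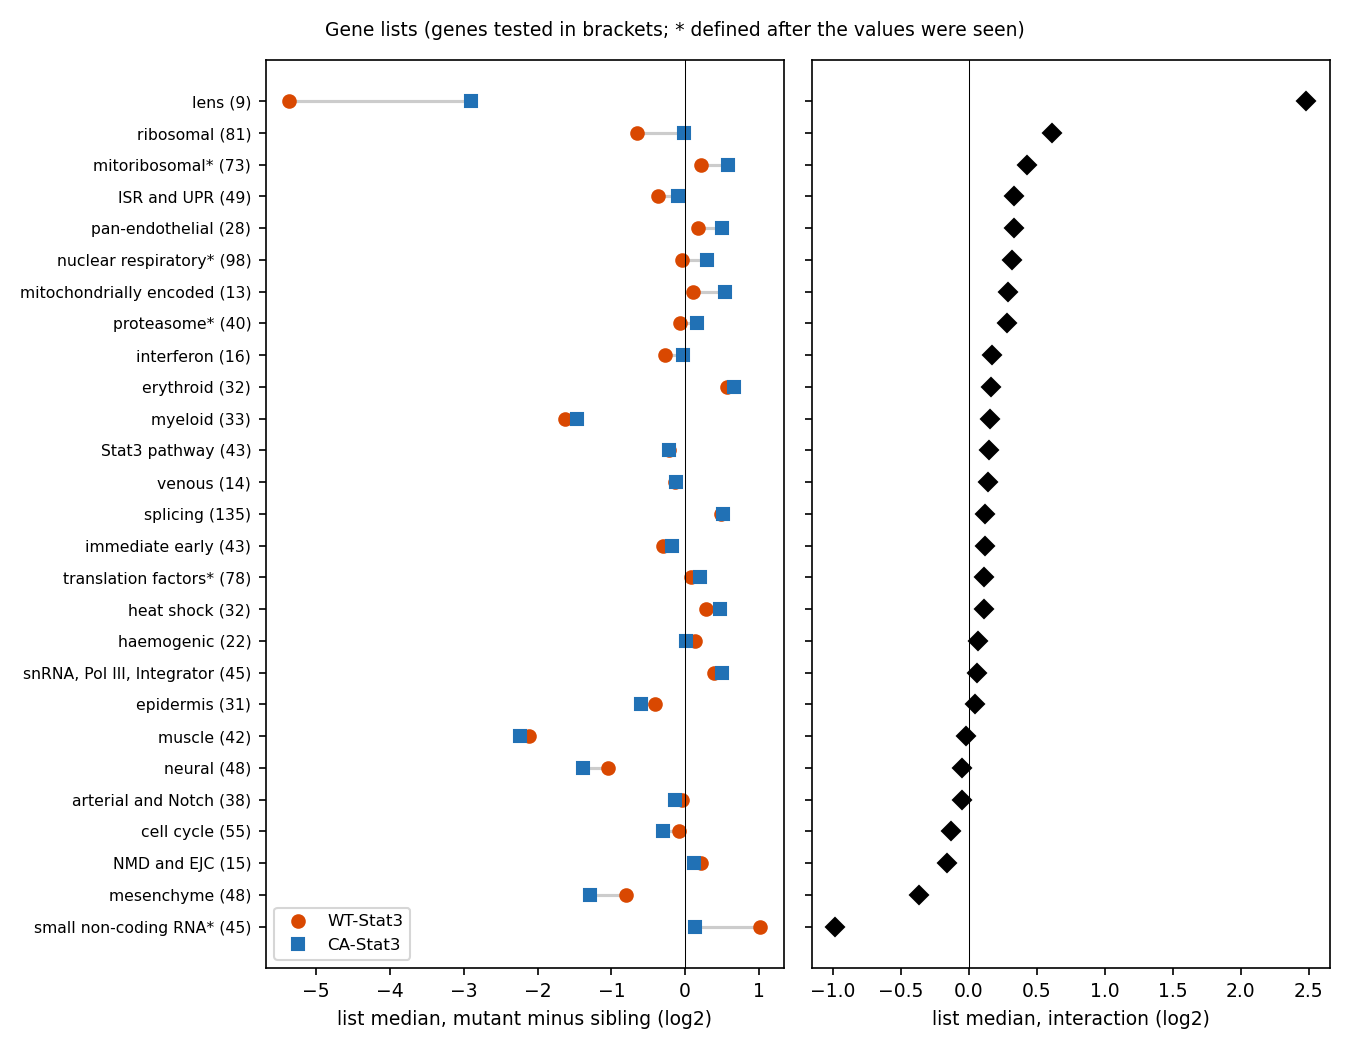
Median log2 mutant minus sibling change of each gene list with WT-Stat3 (orange circles) and CA-Stat3 (blue squares) in the left panel and median interaction (black diamonds) in the right panel; brackets give the genes tested and asterisks mark sets defined after the values were seen. Apart from the lens list, which rests on a few counts, ribosomal protein genes at 0.61 and small non-coding RNAs at -0.98 lie farthest from 0.

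The 10 named genes with the smallest interaction p were not called with the filter on low counts. ENSDARG00000104308, which had the smallest edgeR p of all genes and a negative interaction, was left out because it has no symbol. Of the 10 interactions 9 were positive, beside 399 of the 669 genes at an unadjusted p under 0.05. The exception was LNX1, a ubiquitin ligase that binds the Notch regulator Numb. It was at 21.7, 29.5 and 25.3 CPM in mutants and 1.79, 2.56 and 3.01 CPM in siblings with CA-Stat3, and at 42.1 and 32.8 CPM against 0.914 and 0.890 CPM with WT-Stat3. LNX1 rose by 3.39 and 5.34, and its interaction was -1.95 with an SE of 0.47 (unadjusted p = 0.0012, adjusted p = 0.988). It was thus strongly higher in mutants in either construct, and the groups of a genotype did not overlap between constructs.

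TULP4, a tubby-like protein, was at 25.9, 19.1 and 28.2 CPM in mutants with CA-Stat3 and 24.4 and 19.0 CPM in mutants with WT-Stat3. Its siblings were at 5.86, 7.67 and 3.61 CPM with CA-Stat3 and 18.8 and 16.4 CPM with WT-Stat3. The siblings, not the mutants, therefore separated by construct. TULP4 rose by 2.07 with CA-Stat3 (adjusted p = 0.0010, edgeR) and had a change of 0.30 with WT-Stat3 (adjusted p = 0.63), and its interaction was 1.77 with an SE of 0.44. PFDN6, a prefoldin subunit that hands actin and tubulin to their chaperonin, was at 26.4, 31.8 and 30.4 CPM in mutants with CA-Stat3 and at 12.1 to 19.2 CPM in the other 7 libraries. It rose by 0.94 with CA-Stat3, had a change of -0.45 with WT-Stat3, and its interaction was 1.39 with an SE of 0.34. The nucleolar ribosome assembly factor nop16 had a like order, at 17.9, 17.8 and 28.0 CPM in mutants with CA-Stat3 and 4.14 to 12.9 CPM in the other 7 libraries, with an interaction of 2.18 and an SE of 0.53.

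In other genes the 2 mutant libraries with WT-Stat3 were the low ones. The mitoribosomal gene mrps6 was at 3.07 and 1.38 CPM there and at 5.11 to 8.27 CPM in the other 8 libraries. VASN, a membrane protein that binds transforming growth factor beta, was at 3.07 and 1.38 CPM there and 4.40 to 9.08 CPM elsewhere. Their interactions were 2.2 for mrps6 and 2.33 for VASN, and both values rest on low counts in those mutant libraries. The zinc finger gene znf1177 was at 0.658 and 0.345 CPM there, from 3 counts and 1 count, and at 1.70 to 5.03 CPM elsewhere, with an interaction of 3.45 and an SE of 0.77. KXD1, a subunit of the lysosome-positioning BORC complex, had 2 counts and 0 counts in those libraries and 12 to 44 in the other 8. The immunoglobulin heavy chain gene ighm had 1 and 0, against 9 to 33. For KXD1 and ighm no fold is given, since the fitted value depends on the prior count. The retinal gene rp1l1b was at 2.85 and 3.45 CPM in mutants and 5.82 and 13.0 CPM in siblings with WT-Stat3, and its mutant libraries with CA-Stat3 at 6.64 to 12.5 CPM lay above their siblings at 2.56 to 5.98 CPM. Of the libraries in which these genes were low, mutant WT-Stat3 replicate 2 was the shallowest of all 10.

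**Figure D5:**
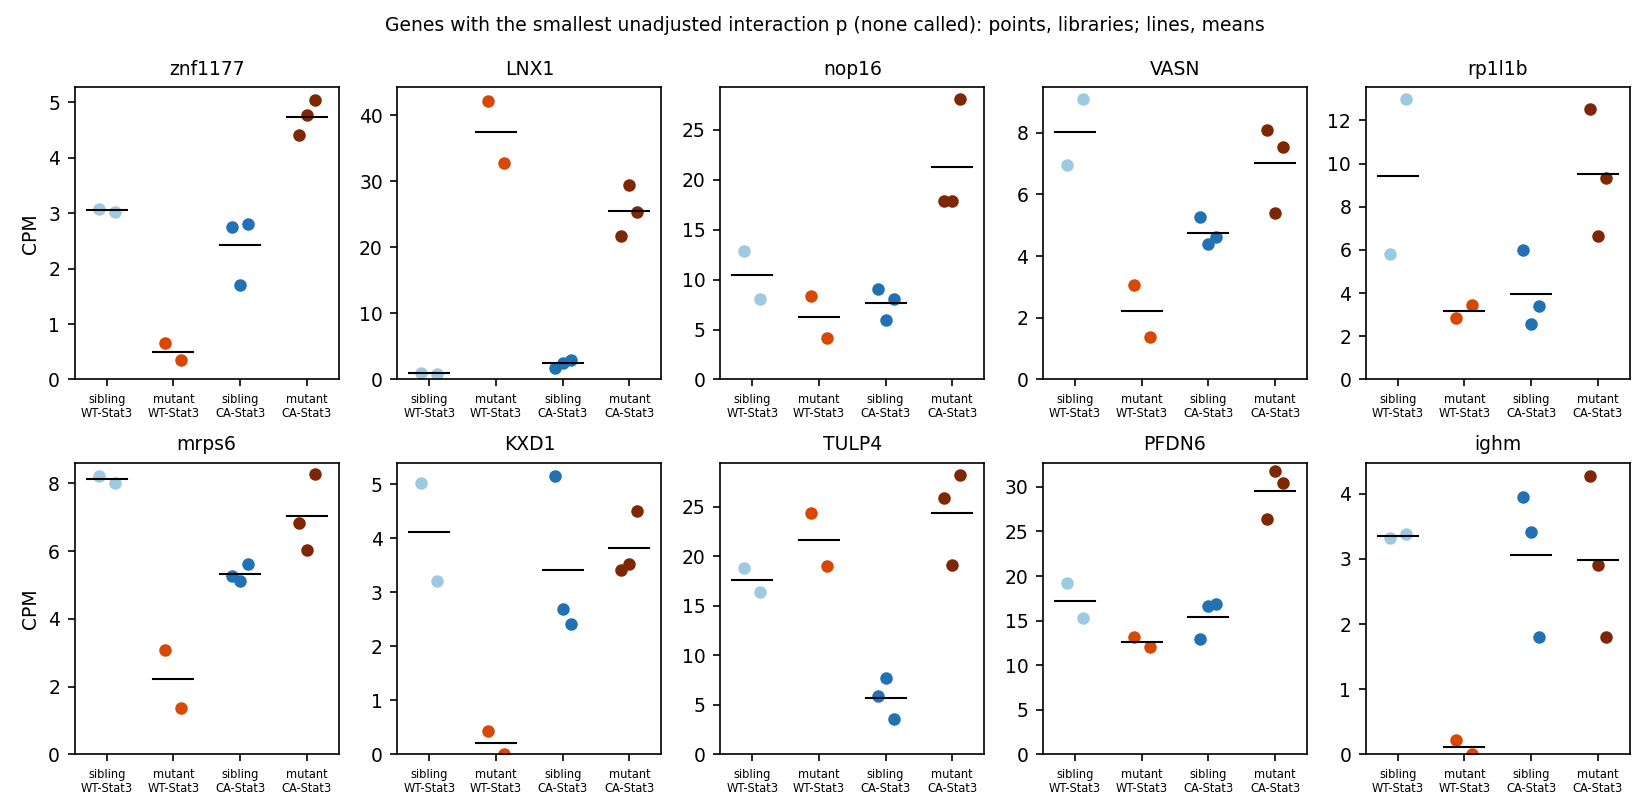
CPM (y axis, from 0) of the 10 named genes with the smallest unadjusted interaction p in each library (points) of the 4 groups, with group means (lines). LNX1 is high in mutants of either construct, TULP4 is lowest in siblings with CA-Stat3, PFDN6 and nop16 are highest in mutants with CA-Stat3, and mrps6, VASN, znf1177, KXD1 and ighm are lowest in mutants with WT-Stat3.

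Leaving out any 1 library changed the size but not the sign of these interactions. The genes were chosen for their small p in the same libraries, so a stable sign adds no separate support. Without mutant WT-Stat3 replicate 2 the values were 3.16 for znf1177, 1.95 for VASN and 1.82 for mrps6, and without sibling WT-Stat3 replicate 1 they were 1.79 for nop16 and 1.22 for PFDN6. LNX1 stayed between -2.15 and -1.74 and TULP4 between 1.55 and 2.03.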

How the data were processed

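The values are raw read counts per Ensembl gene as deposited, in a column for each library. The submitters' processing notes name featureCounts, STAR 2.4.2a, Trim Galore, DESeq2 and Picard, without their roles, and the genome build GRCz10. How strand and multi-mapping reads were handled is not given in the sources used here. Near-identical paralogs such as ribosomal, globin and small RNA genes are uncertain.

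Counts of the 10 libraries were fitted with edgeR 4.0.16 (R 4.3.3): filterByExpr with a minimum count of 10 and total of 15, TMM scaling, 1 coefficient per group, the quasi-likelihood test (6 residual degrees of freedom) and BH adjustment over 16634 genes at 0.05. SEs are the absolute log2 value over the square root of F, and intervals are 95% by the t distribution. Log2 CPM used a prior count of 2. Alternatives were DESeq2 1.42.0, limma 3.58.1 with quality weights, other filters and scalings, thinning to 3625121 counts, all 15 libraries and leaving out each library. The test was checked on simulated data with large changes in well-expressed genes and an equal spread for every gene. That check does not cover small changes or low genes.

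Members and lists were chosen with earlier results of these data known. Named genes were SF3B1, STAT3, SOCS3, kdrl, listed Stat3 and blood genes, the 10 with the smallest interaction p among genes with an average log2 CPM of at least 1 and a symbol that is no clone, and up to 3 members of each list called in the average of the constructs. Genes outside this rule, chosen after their values were seen, were the member of a list with the smallest interaction p, ENSDARG00000104308, rn7sk, rn7sl1, the keratins and HBE1. Symbols are printed as the gene name table gives them, and 26269 of 32105 identifiers had one.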

Additional observations from a re-analysis of the deposited data

How the results depend on the processing

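The interaction count was 0 with limma, RLE size factors, thinning, all 15 libraries, the 3 most abundant rows left out and each CA-Stat3 library left out. A filter of at least 1 CPM in 5 libraries and 50 counts in total tested 16657 genes and also gave 0. The count was 1 with DESeq2 and 31 without a filter on low counts. DESeq2 gave 1418 calls for mutant minus sibling with WT-Stat3, 32 for the construct in mutants and 2 in siblings. With limma there were 3340 calls with CA-Stat3 and 424 with WT-Stat3, and with all 15 libraries 1347 with WT-Stat3. Without a filter the counts were 3152 with CA-Stat3, 1952 with WT-Stat3, 178 for the construct in mutants and 56 in siblings. With 2 libraries in every group, a setting chosen after seeing the data, there were 441 calls with CA-Stat3, 662 with WT-Stat3 and 2576 in the average. Leaving out each library gave 640 to 2386 calls with CA-Stat3, 125 to 1405 with WT-Stat3, 2383 to 4138 in the average, 0 to 174 for the construct in mutants, 0 in siblings, and a median interaction along the mutant direction of -0.586 to 0.0787. The cause of these differences was not tested. A lone library left in a group is assumed to vary as the remaining groups do.

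With the replicate block the interaction had 0 calls, CA-Stat3 1959, WT-Stat3 836, the average 3726 and the median along the mutant direction was -0.102. The deviations of 13 same-numbered pairs correlated at -0.170 to 0.373, with 3 pairs over 0.1. These values do not settle whether replicate numbers pair the samples. Deviations mirror each other in groups of 2 libraries, and pairs of unlike number were not compared. Counting the interaction of each named gene in each alternative setting, 10 values passed the threshold, 72 moved by more than 1 SE and 2368 did not. Depth limits low genes: the median SE was 1.04 under an average log2 CPM of 2.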

Other observations

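Epidermal keratins and embryonic globins were among the 31 genes that edgeR called without the filter on low counts, and edgeR called none with it. The 31 of 27215 genes also held 1 of 82 ribosomal protein genes, RPL29, with an interaction of 1.61 (adjusted p = 0.011, edgeR). Of 103 small non-coding RNAs 3 were called, and so were nop16, rp1l1b and ENSDARG00000104308. The keratin krt5 was at 18.5, 12.2 and 8.81 CPM in mutants and 20.4, 38.1 and 96.2 CPM in siblings with CA-Stat3, and at 67.8 and 11 CPM against 6.17 and 46.1 CPM with WT-Stat3. Its interaction was -2.59 with an SE of 1.16 and an unadjusted p of 0.044 with the filter, and -2.57 at an adjusted p of 1.09e-06 without it (edgeR). The groups overlapped with WT-Stat3, and replicates of 1 group differed several-fold. The keratin krt4 ranged from 178 to 835 CPM between the 2 siblings with WT-Stat3 and had an interaction of -1.51 with an SE of 0.91.

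The globin gene hbbe3 was at 812, 725 and 391 CPM in mutants and 730, 449 and 187 CPM in siblings with CA-Stat3, and at 185 and 222 CPM against 394 and 355 CPM with WT-Stat3. Its interaction was 1.38 with an SE of 0.61 (unadjusted p = 0.041). The globin HBE1 had 1.49 with an SE of 0.80, and was at 36.6 and 36.9 CPM in mutants with WT-Stat3 and at 44.9 to 261 CPM in the other 8 libraries.

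The myeloid gene fcer1g was at 0 in both mutant libraries with WT-Stat3 and at 1.26 to 2.28 CPM in mutants with CA-Stat3, while the 5 siblings were at 3.11 to 11.9 CPM. The thrombocyte and stem cell integrin itga2b was at 0 in those 2 libraries and in 1 library of each CA-Stat3 group, and at 0.830 to 2.51 CPM in the other 6.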
